A study of Mus musculus with 59 samples.

Results

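Intracisternal A-particle (IAP) elements were followed as the repeat subfamilies whose name contains IAP in tables of reads counted per subfamily. Each of the 6 repeat tables analysed held 25 such subfamilies, out of between 887 and 1114 rows, and all belonged to the ERVK family of long terminal repeat (LTR) retroelements. Of these, 10 were internal regions, the coding part of the provirus, and 15 were LTRs, the flanking ends that hold the promoter. A row sums the reads of every genomic copy of a subfamily, so it has no single position. Levels are numbers of reads and are not divided by the length or copy number of a subfamily, so they are compared between libraries and not between subfamilies.

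IAPs are mouse endogenous retroviruses that still include mobile copies, and their LTRs can drive transcription of the provirus and of neighbouring genes. In most tissues they are kept silent by DNA methylation and by the histone mark H3K9me3, which the corepressor TRIM28 and the methyltransferase SETDB1 place after zinc finger proteins have bound the element. DAXX is a chaperone that, with the remodeller ATRX, deposits the histone variant H3.3 at heterochromatin and retroelements, and Pu.1 (the product of Spi1) is a transcription factor of myeloid cells. IAPEz-int is the internal region of the best known mobile IAPs, and the IAPLTR1 and IAPLTR2 rows are LTRs of that type. IAPEY rows belong to a related branch that has many copies on the Y chromosome.

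The study asked what loss of Daxx does to haematopoietic progenitors and whether Pu.1 takes part. Bone marrow cells of C57BL/6 mice were sorted as KLS cells (c-Kit+, lineage-, Sca-1+; stem cells and early progenitors) or as granulocyte-macrophage progenitors (GMPs). The Daxx groups were WT (Daxx +/+ Cre +/-), Daxx-KO (Daxx F/F Cre +/-) and a double knockout, DKO (Daxx F/F with Pu.1 F/F, also Cre +/-), and the Pu.1 line had Pu.1 +/+ Cre +/- as WT and Pu.1 F/F Cre +/- as Pu.1-KO. All these groups, controls included, carried Cre. In the sets taken at 3 weeks post injection (w.p.i.), Cre came from the Mx1Cre line, whose promoter answers interferon and is switched on by injecting pI:pC, so controls had an interferon stimulus as well. An earlier set of WT and Daxx-KO libraries has no time in its labels and is called untimed here. The study also sequenced KLS cells and GMPs from irradiated mice transplanted with bone marrow. The sample names do not say whether the untimed set is that one, so it may differ from the other sets in more than time. The labels give no age for the animals. KLS cells at 3 w.p.i. comprised 3 Daxx-KO, 3 WT and 2 DKO libraries, GMPs at 3 w.p.i. had 2 libraries in each of those groups in the repeat counts, and the untimed sets and the Pu.1 line had 2 libraries per genotype and cell type. The gene counts and gene tests of GMPs at 3 w.p.i. also held Daxx-KO Lo23 and an unnumbered WT library. Within a cell type, library numbers mark separate samples, and p-values measure the spread between these samples. At 3 w.p.i. the KLS and GMP columns share Lo numbers, which were read as animal numbers. The genotype of a numbered GMP library was taken from the KLS label with that number. KLS cells and GMPs of that set are therefore not independent. In bulk RNA, fewer cells of a type and less RNA per cell cannot be told apart.

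The 30 repeat libraries held from 1263010 to 12894834 reads assigned to repeats. Daxx transcripts from the partly deleted gene were lower in every comparison of Daxx-KO or DKO with WT in the gene tables. In KLS cells at 3 w.p.i., normalized counts of Daxx were 82.6, 102 and 72.2 in the Daxx-KO libraries, 93.9 and 78.1 in the DKO libraries, and 423, 467 and 505 in the WT libraries. Spi1 transcripts were not lost where Pu.1 F/F is labelled: Spi1 stood at 3330 and 2993 in the DKO KLS libraries against 1676, 1669 and 2320 in WT, and at 2920 and 1307 in the Pu.1-KO KLS libraries against 2764 and 2080 in their WT. These libraries are therefore named by their labels only. Libraries also differed in cell type markers. The summed normalized counts of 7 plasma cell markers ranged from 3526 to 122043 in WT KLS libraries at 3 w.p.i., from 55383 to 147628 in Daxx-KO and from 165928 to 207430 in DKO, with all 7 markers detected in every group. Ighm made up most of these sums, with 110066 of the 122043 in WT and 137691 of the 147628 in Daxx-KO. The sums therefore follow mainly 1 gene.

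The untimed repeat tables raise a question of names. When the repeat reads of each column were divided by the gene reads of the column with the same name, the 4 KLS libraries gave 0.614, 2.19, 0.225 and 0.0634 repeat reads per gene read (WT 1, WT 2, Daxx-KO 1, Daxx-KO 2). When the gene reads were taken from the column of the other genotype with the same number, the KLS ratios were 0.374, 0.380, 0.370 and 0.364. In GMPs the ratios were 0.256, 1.10, 0.599 and 0.136 by the same name and 0.373, 0.449, 0.411 and 0.332 by the exchanged name. The ratios were thus nearly equal only with the genotype names exchanged, while Daxx itself was low in the columns named Daxx-KO in the gene tables. Size factors, which scale for depth, matched in the same way. Repeat columns named WT had 0.476 and 2.51 in GMPs and 0.935 and 3.51 in KLS cells. Gene columns named Daxx-KO had 0.493 and 2.45, and 0.914 and 3.30. Repeat columns named Daxx-KO had 0.772 and 1.11, and 0.557 and 0.564. Gene columns named WT had 0.769 and 1.11, and 0.581 and 0.581. Depth thus pairs each repeat column with the gene column of the other genotype name. The untimed repeat values are therefore given as named, with the direction under exchanged names beside them, and were kept apart from the 3 w.p.i. sets.

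In KLS cells at 3 w.p.i., 3 internal regions rose in Daxx-KO and no LTR passed the test. IAPLTR3-int, an internal region, rose to more than 3 times the level of every WT library in each Daxx-KO library. It had 384, 425 and 341 RPM (reads scaled to a common number of repeat reads per library, after TMM scaling, which sets most subfamilies level between libraries) in libraries Lo22, Lo23 and Lo24. The WT libraries Lo52, Lo53 and an unnumbered one had 82.3, 70.7 and 102 RPM. The groups did not overlap, and the log2 fold change was 2.17 ± 0.15 (SE; edgeR quasi-likelihood test, adjusted p = 0.000114, n = 3 against 3). The values rested on 1125 to 1271 reads per library in Daxx-KO and on 290 to 379 in WT.

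IAP1-MM_I-int, the internal region of a mouse IAP type, followed the same order at a lower level. It had 119, 137 and 140 RPM in Daxx-KO and 55.4, 41.2 and 39.8 in WT. Every Daxx-KO library was more than 2 times as high as every WT library, with a log2 fold change of 1.54 ± 0.16 (edgeR, adjusted p = 0.0012).

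IAPEz-int took up most IAP reads, from 63.4% to 76.9% of them in these 6 libraries. It had 10165, 17493 and 13886 RPM in the Daxx-KO libraries Lo22, Lo23 and Lo24, a mean of 13848 ± 3664 (SD, n = 3). In WT it had 6418, 7470 and 7335 RPM, a mean of 7075 ± 573 (n = 3). The Daxx-KO libraries were all higher than WT but spread widely, and the log2 fold change of 0.97 ± 0.16 lay near the threshold (edgeR, adjusted p = 0.037). Leaving out Daxx-KO Lo24 gave an adjusted p of 0.158 in edgeR, leaving out WT Lo52, WT Lo53 or the unnumbered WT gave 0.286, 0.170 and 0.105, and the fold change was then between 0.90 and 1.01.

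**Figure D1:**
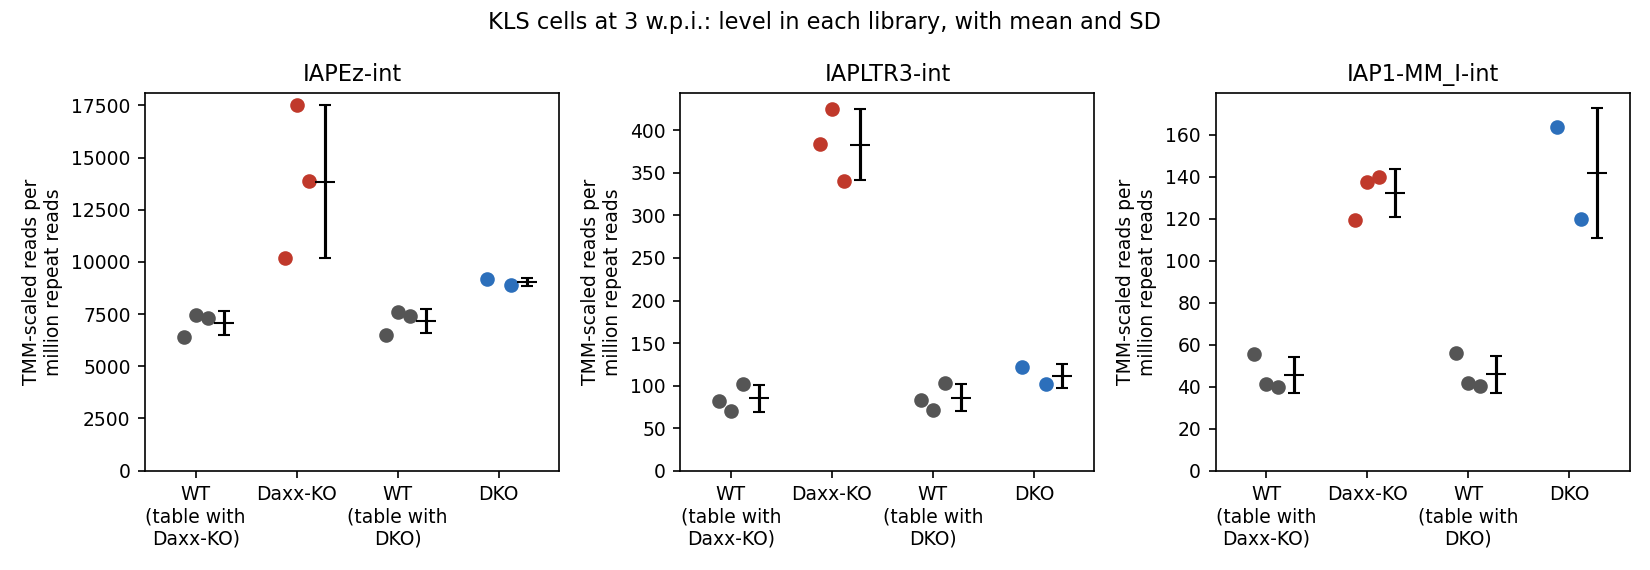
RPM (TMM-scaled, of repeat reads, y axis from 0) of IAPEz-int, IAPLTR3-int and IAP1-MM_I-int in KLS cells at 3 w.p.i. Each point is a library and the bar beside it gives the mean and SD; the same 3 WT libraries stand in both tables. IAPLTR3-int lies at 341 to 425 in Daxx-KO and at 102 to 122 in DKO, and IAP1-MM_I-int lies at 119 to 164 in both.

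Of the 24 IAP subfamilies tested (IAPLTR4_I had too few reads), 3 were called and all 3 were higher, whereas 0.613% of all 815 subfamilies tested were called. The median log2 fold change was 0.25 over the IAP rows and 0.00 over all subfamilies. Internal regions had a median of 0.71 (3 of 9 called) and LTRs one of 0.09 (0 of 15 called). In 11 of the 24 the Daxx-KO libraries all lay above the WT libraries, against 7.61% of all subfamilies. Among the other ERVK subfamilies, 2 of 249 were called.

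Among the named rows that did not pass the test, IAPLTR2_Mm, an LTR of the IAPEz type, had 711 ± 110 RPM in Daxx-KO and 495 ± 6.61 in WT (log2 fold change 0.52, edgeR adjusted p = 0.103). IAPLTR1_Mm had 1050 ± 242 and 878 ± 79.4, and IAPLTR1a_Mm had 342 ± 29.7 and 309 ± 31.5, with overlapping groups. IAPEY4_I-int, an internal region of the IAPEY branch, had 683 ± 95.6 RPM in Daxx-KO and 482 ± 76.2 in WT (log2 fold change 0.50, edgeR adjusted p = 0.220), and DESeq2 called it (adjusted p = 0.00176). No LTR row of the IAPEz type passed. IAPLTR3, the LTR row that shares its name with IAPLTR3-int, had a log2 fold change of -0.01 ± 0.40. That LTR row had only 20.1 ± 7.98 RPM in Daxx-KO and 20.4 ± 7.09 in WT. The other 16 rows tested had log2 fold changes from -0.39 (IAPEY3_LTR, 58.3 ± 6.13 against 76.5 ± 11.9 RPM) to 1.03 (IAPEY5_LTR, 24.1 ± 5.56 against 11.7 ± 4.80), and both of these rows had groups that did not overlap. IAPA_MM-int, an internal region, had 71.8, 92.1 and 84.0 RPM in Daxx-KO and 50.9, 39.5 and 49.5 in WT (log2 fold change 0.83, edgeR adjusted p = 0.103). Of the IAPEY rows given here, IAPEY3_LTR was lower in Daxx-KO and IAPEY4_I-int and IAPEY5_LTR were higher. IAPEY3-int, at 309 against 299 RPM, and IAPEY5_I-int, at 34.8 against 21.3, were also higher.

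Cell type markers also differed between these libraries at 3 w.p.i., and their part in the IAP values was not tested. Plasma cell marker counts were 55383, 119267 and 147628 in Daxx-KO Lo22, Lo23 and Lo24, and 8533, 3526 and 122043 in the WT libraries. The unnumbered WT library, where that count was 122043, had an IAPLTR3-int level of 102 and an IAPEz-int level of 7335. Library Lo23, which had the highest IAPEz-int level, also had the highest sum of 7 B cell markers, 32987 against 468 to 757 in WT. Without Lo23 the log2 fold change of IAPEz-int was 0.77 (edgeR, adjusted p = 0.0143).

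In DKO KLS cells, of these 3 internal regions IAP1-MM_I-int was called against WT, with 164 and 120 RPM in DKO Lo54 and Lo56 against 56.1, 41.8 and 40.1 in the same WT libraries (log2 fold change 1.63 ± 0.21, edgeR adjusted p = 0.0295). Without DKO Lo54, WT Lo52 or WT Lo53 the adjusted p was 0.114, 0.0883 and 0.0761, with the fold change still between 1.38 and 1.79. IAPLTR3-int had 122 and 102 RPM in DKO and 83.4, 71.7 and 103 in WT, overlapping groups with a log2 fold change of 0.38 (edgeR adjusted p = 0.40). IAPEz-int had 9184 and 8895 RPM in DKO against 6501, 7578 and 7402 in WT. Both DKO libraries lay above WT, but the log2 fold change of 0.34 ± 0.07 did not pass (edgeR adjusted p = 0.0861), while DESeq2 called it (adjusted p = 0.000214).

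In all, 1 of 25 IAP rows was called in DKO against WT, where 0.605% of all 827 subfamilies were, and the IAP median was -0.04. Of the other named rows, IAPEY4_I-int had 319 ± 20.1 RPM in DKO and 487 ± 77.9 in WT (log2 fold change -0.61, adjusted p = 0.106 in edgeR). IAPLTR1_Mm had 850 ± 57.4 against 888 ± 80.9, IAPLTR2_Mm 579 ± 91.8 against 501 ± 6.54 and IAPLTR1a_Mm 331 ± 53.0 against 313 ± 31.2, and none of these passed. The DKO libraries lay below WT in 8 of the 25 rows (16.1% of all subfamilies did) and above it in 5 (15.8%). The Daxx-KO and DKO comparisons share their 3 WT libraries, so the 2 sets of fold changes are not independent.

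**Figure D2:**
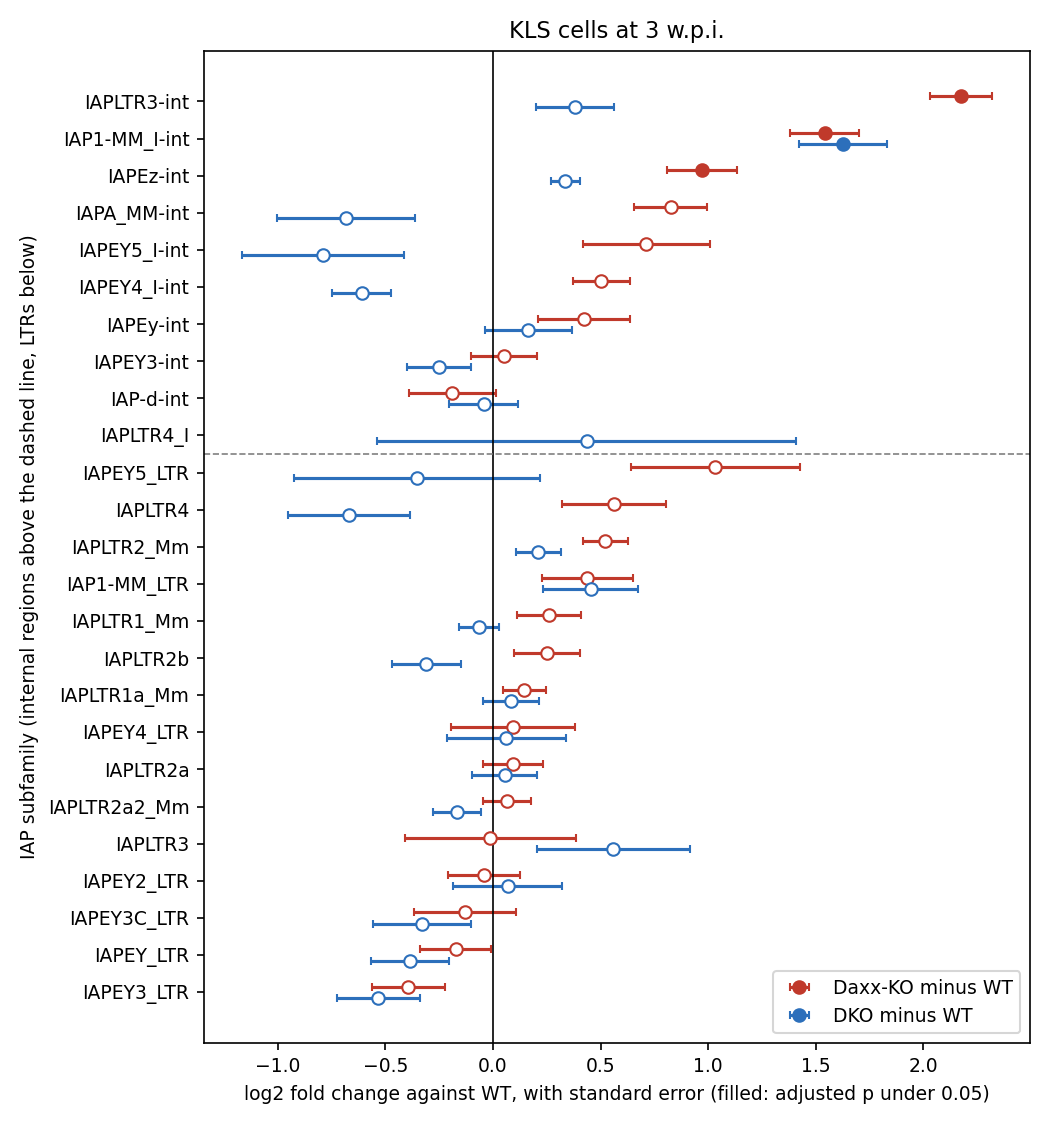
Log2 fold change against WT (x axis, with standard error) of each IAP subfamily in KLS cells at 3 w.p.i., for Daxx-KO and DKO against the same WT libraries, with internal regions above the dashed line and LTRs below. Filled points passed an adjusted p of 0.05: IAPLTR3-int (2.17), IAP1-MM_I-int (1.54) and IAPEz-int (0.97) in Daxx-KO, and IAP1-MM_I-int (1.63) in DKO.

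Set directly against Daxx-KO, the DKO libraries were lower in 3 IAP internal regions and higher in none. IAPLTR3-int had 111 ± 13.9 RPM in DKO and 384 ± 42.3 in Daxx-KO, with a log2 fold change of -1.796 ± 0.17 (edgeR adjusted p = 0.0011). IAPEY4_I-int had 316 ± 19.9 against 685 ± 96.1 RPM (log2 fold change -1.12 ± 0.15, edgeR adjusted p = 0.0101). IAPA_MM-int, another internal region, had 29.1 ± 13.8 against 82.8 ± 10.2 (log2 fold change -1.51 ± 0.28, edgeR adjusted p = 0.0498). This last call lay at the threshold: the adjusted p in edgeR was 0.0839, 0.109, 0.142 and 0.323 without Lo22, Lo23, Lo24 and Lo54, and 0.134 when only the Daxx-KO and DKO libraries were fitted. The calls made up 3 of 25 rows, against 0.839% of all 834 subfamilies, and the IAP median was -0.23 where that of all subfamilies was -0.01. Without DKO Lo54 the call on IAPEY4_I-int was lost (adjusted p = 0.158 in edgeR) and 1 IAP row was called. Of the LTRs, IAPLTR1_Mm had 841 ± 56.9 against 1053 ± 242 RPM, IAPLTR2_Mm 574 ± 90.9 against 712 ± 109 and IAPLTR1a_Mm 328 ± 52.5 against 343 ± 29.5, and none passed. In 9 of the 25 rows both DKO libraries lay below every Daxx-KO library (14.6% of all subfamilies did) and in 0 above (15.6%).

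IAPEz-int was at 8806 and 9093 RPM in DKO and between 10202 and 17531 in Daxx-KO. The groups did not overlap, but the log2 fold change of -0.63 ± 0.18 did not pass (edgeR adjusted p = 0.128). IAP1-MM_I-int had overlapping groups, 119 and 162 in DKO and 120 to 140 in Daxx-KO, with a log2 fold change of 0.09 ± 0.18. DKO libraries also stood apart in cell markers: the sum of 7 GMP markers was 104568 and 108938 in DKO against 3754 to 13187 in Daxx-KO, and that of 5 late neutrophil markers was 132892 and 164317 against 868 to 5807. The part of this shift in the IAP differences was not tested.

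In GMPs at 3 w.p.i. no IAP row passed the test, in a table where no repeat did (0.0% of 798 subfamilies were called in each of Daxx-KO against WT, DKO against WT and DKO against Daxx-KO). Of 24 IAP rows, 2, 2 and 1 had an unadjusted p under 0.05 in edgeR in those comparisons. DESeq2 called 1, 1 and 0 of them, and 0.501%, 0.627% and 0.125% of all subfamilies. IAPLTR3-int was the row that DESeq2 called, and it was again the clearest: it had 437 and 467 RPM in Daxx-KO Lo22 and Lo24 and 115 and 98.9 in WT Lo52 and Lo53. KLS libraries carry the same numbers, so the GMP values are not an independent repeat of the KLS result. Both Daxx-KO libraries were more than 3 times as high as both WT libraries, with a log2 fold change of 2.09 ± 0.38 (edgeR adjusted p = 0.232, n = 2 against 2). The DKO libraries Lo54 and Lo56 had 221 and 514 RPM, also above WT but far from each other (log2 fold change 1.78 ± 0.38, edgeR adjusted p = 0.422).

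For IAPEz-int, the Daxx-KO GMPs had 15306 and 21105 RPM, the WT GMPs 9860 and 8531, and the DKO GMPs 8170 and 22043. Daxx-KO lay above WT and the DKO libraries fell on either side of it, with log2 fold changes of 0.99 ± 0.42 in Daxx-KO (edgeR adjusted p = 0.978) and 0.72 ± 0.42 in DKO (edgeR adjusted p = 0.990). IAP1-MM_I-int had 128 and 141 RPM in Daxx-KO and 116 and 30.9 in WT, so that the WT libraries lay far apart and 1 of them stood close to Daxx-KO. IAPLTR4, an LTR, had 37.5 and 63.1 RPM in Daxx-KO, 41.4 and 35.4 in DKO and 18.9 and 19.6 in WT, on 30 to 123 reads per library. DKO Lo56 had the highest level of IAPLTR3-int, IAPEz-int and IAP1-MM_I-int, and without DKO Lo54 the edgeR test of DKO against WT called 2 IAP rows (1.11% of all subfamilies). Across the 24 rows, the Daxx-KO libraries both lay above WT in 10 (18.2% of all subfamilies did) and the DKO libraries in 4 (15.8% of all subfamilies). Of the LTRs with the most reads, IAPLTR1_Mm had 1169 and 1403 RPM in Daxx-KO, 764 and 1415 in DKO and 968 and 913 in WT. IAPLTR2_Mm and IAPLTR1a_Mm had log2 fold changes of 0.61 and 0.06 in Daxx-KO and of 0.56 and 0.21 in DKO, and IAPEY4_I-int 0.33 and 0.50.

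The GMP libraries at 3 w.p.i. also differed in cell markers. In DKO Lo54 and Lo56 the B cell markers summed to 3499 and 239 and the GMP markers to 98243 and 193021. Late neutrophil markers summed to 280765 and 52569 in WT Lo52 and Lo53 and to 37396 and 38083 in Daxx-KO Lo22 and Lo24. In Daxx-KO Lo23 and the unnumbered WT library, which are in the gene counts only, they summed to 272472 and 218854. IAPLTR3-int was at 115 and 98.9 RPM in WT Lo52 and Lo53, and the part of markers in the IAP values was not tested.

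**Figure D3:**
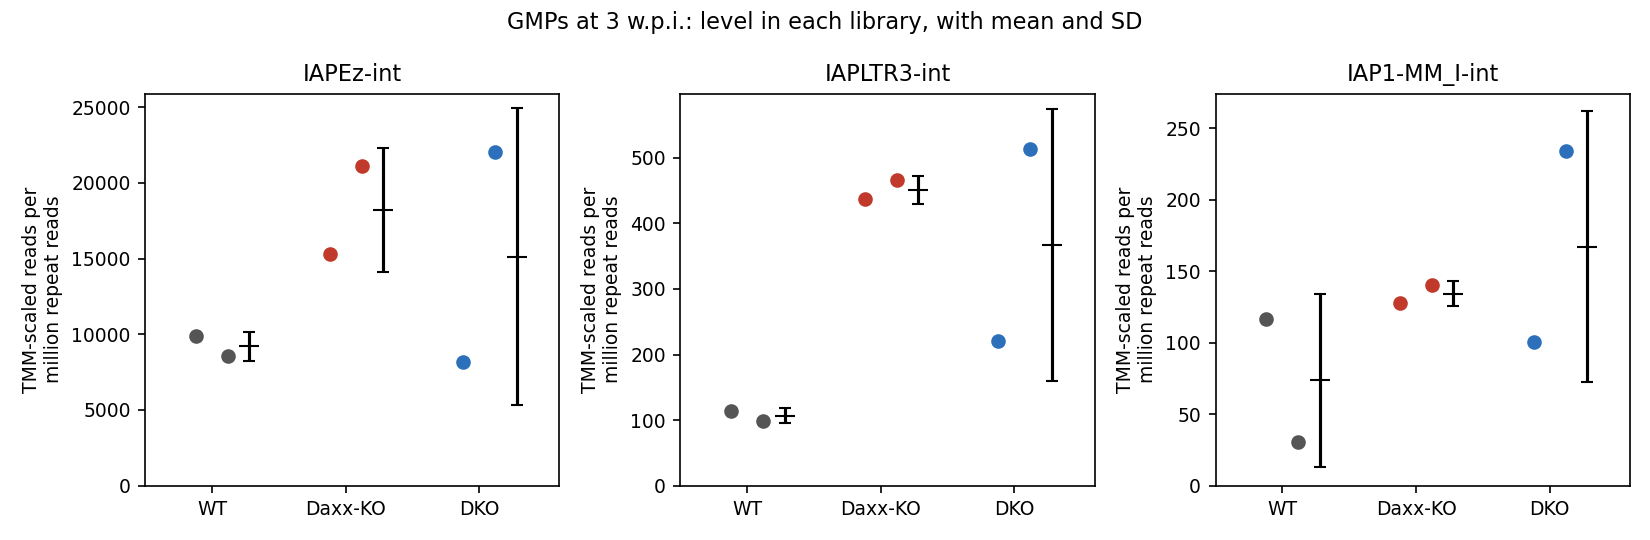
RPM (TMM-scaled, of repeat reads, y axis from 0) of the same 3 internal regions in GMPs at 3 w.p.i., with a point per library and the mean and SD beside it. For IAPLTR3-int the Daxx-KO libraries lie at 437 and 467 and the WT libraries at 115 and 98.9, while the 2 DKO libraries lie apart at 221 and 514.

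Taking the untimed columns as named, 7 IAP rows in KLS cells and 11 in GMPs fell in Daxx-KO. With the names exchanged, as the read depths pair the columns, these rows would be higher in Daxx-KO. In KLS cells, normalized counts of IAPLTR3-int were 1592 and 2248 in the columns named WT and 296 and 197 in those named Daxx-KO (log2 fold change -2.96 ± 0.18, limma). IAPEz-int had 22164 and 27946 normalized counts in the columns named WT and 12358 and 12327 in those named Daxx-KO (-1.01 ± 0.16, limma). The groups were far apart in both rows.

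Of 25 IAP rows in untimed KLS cells, 8 were called by limma, 7 lower and 1 higher in the columns named Daxx-KO, against 11.8% of all 1007 subfamilies. Of the 25 rows, 15 had a negative and 10 a positive log2 fold change, and the median was -0.58 over internal regions and 0.34 over LTRs. IAPLTR4, an LTR, had 409 and 365 normalized counts in WT and 110 and 83.3 in Daxx-KO (log2 fold change -2.004). The internal regions IAPEY4_I-int, IAPEy-int and IAP1-MM_I-int had log2 fold changes of -1.34, -0.99 and -0.83, and the LTR IAPLTR1_Mm one of -0.90. IAPEY2_LTR, an LTR of the IAPEY branch, was the row that was higher, with 192 and 193 normalized counts in Daxx-KO against 95.4 and 113 in WT (log2 fold change 0.88). That call was lost with TMM rescaling, with edgeR or DESeq2 on the recovered reads and without either WT column. On the deposited scale the median of all subfamilies was itself 0.27 and that of the IAP rows -0.19. With TMM rescaling these medians were -0.00 and -0.47. Over all subfamilies 79 of the 119 calls were higher on the deposited scale, and 4 of 41 after TMM rescaling. Leaving out WT 2 or Daxx-KO 2 left 1 library in a group. The median log2 fold change was then -0.23 and -0.08 over IAP rows and 0.16 and 0.26 over all subfamilies.

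In untimed GMPs, 11 of 25 IAP rows were called by limma and all 11 were lower in the columns named Daxx-KO, against 14.3% of all 992 subfamilies. Of the 142 calls over all subfamilies, IAP rows included, 139 were lower. IAPLTR3-int had 2109 and 3443 normalized counts in WT and 246 and 206 in Daxx-KO (log2 fold change -3.57 ± 0.17). IAP1-MM_I-int had 351 and 561 against 119 and 88.3 (-2.10 ± 0.22), and IAPEz-int had 18770 and 21865 against 9741 and 10104 (-1.03 ± 0.14). In each row both columns named Daxx-KO lay below both named WT. This order was common on the deposited scale: it held in 18 of 25 IAP rows and in 61.9% of all subfamilies.

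The other calls in untimed GMPs were IAPLTR4 (-2.40), IAPEY4_I-int (-1.55), IAP-d-int (-1.08), IAPLTR1_Mm (-1.03), IAPLTR2b (-0.69), IAPEY3-int (-0.65), IAPLTR2_Mm (-0.65) and IAPLTR1a_Mm (-0.44), all as log2 fold changes. All subfamilies had a median of -0.28 on the deposited scale and IAP rows one of -0.58. After TMM rescaling 3 IAP rows were called: IAPLTR3-int, IAP1-MM_I-int and IAPEY4_I-int. Without Daxx-KO 2, which left 1 library in that group, the medians were -0.58 over IAP rows and -0.27 over all subfamilies. As a share of all repeat reads, summed IAP reads were 1.32% and 1.64% in the KLS columns named WT and 0.760% and 0.744% in those named Daxx-KO, a ratio of 0.507 that becomes 1.97 with the names exchanged. In GMPs the shares were 1.12% and 1.18% against 0.573% and 0.729%, a ratio of 0.568 as named and 1.76 exchanged.

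Markers in the untimed gene columns moved with the genotype names too. In KLS cells the sum of 8 stem and progenitor markers was 38552 and 40078 in the gene columns named WT and 8988 and 9539 in those named Daxx-KO, and that of 7 GMP markers was 739 to 1387 against 12101 to 15675. In GMPs the 5 late neutrophil markers summed to between 4527 and 6105 in WT and to between 34030 and 49079 in Daxx-KO. Their part in the IAP differences was not tested.

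**Figure D4:**
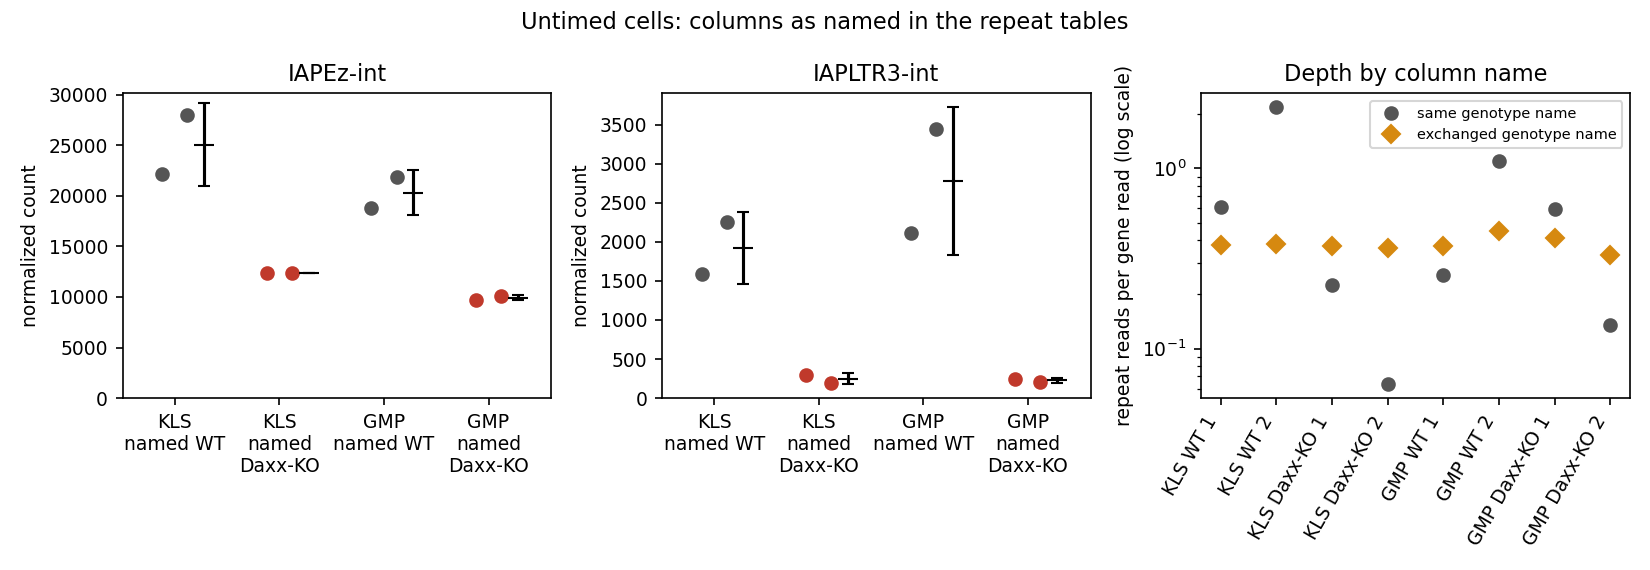
Normalized counts of IAPEz-int and IAPLTR3-int in the untimed columns as named (left and middle, y axis from 0, with mean and SD of 2 libraries) and repeat reads per gene read on a log axis (right). With the same genotype name the ratio runs from 0.0634 to 2.19, and with the exchanged name from 0.332 to 0.449.

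In the Pu.1 line no IAP row passed the test of Pu.1-KO against WT. In KLS cells 0 of 25 were called by edgeR (0.236% of all 847 subfamilies were), 6 had an unadjusted p under 0.05, and DESeq2 called 1 (1.53% of all). IAPEz-int had 5247 and 4983 RPM in Pu.1-KO and 8081 and 6782 in WT, groups that did not overlap (log2 fold change -0.54 ± 0.20, edgeR adjusted p = 0.216). IAPEY4_I-int, which DESeq2 called, had 279 and 259 RPM in Pu.1-KO and 437 ± 63.2 in WT (-0.70 ± 0.15, edgeR adjusted p = 0.157). IAPLTR3-int went the other way, with 384 and 466 in Pu.1-KO against 254 and 310 in WT (log2 fold change 0.59, edgeR adjusted p = 0.216).

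The 5 rows with the most reads in this table also include IAPLTR2_Mm, IAPLTR2a2_Mm, IAPLTR1_Mm and IAPEY3-int, with log2 fold changes of -0.48, -0.18, -0.83 and 0.40 in KLS cells. Without KLS Pu.1-KO library a, the median log2 fold change was -0.40 over IAP rows and 0.05 over all subfamilies. In any fit without library a, here and below, library b alone stood for Pu.1-KO KLS cells. Library b had 12894834 repeat reads and 0.746 repeat reads per gene read. That ratio was 0.368 in library a and 0.258 and 0.329 in the KLS WT libraries. In library a the Y-linked genes Ddx3y, Eif2s3y, Kdm5d and Uty had 1191, 474, 842 and 2153 normalized counts, against 31.4, 108, 120 and 341 in library b and at most 89.4 in the KLS WT libraries. GMP Pu.1-KO a had 556, 370, 269 and 701, against at most 32.8 in the other GMP libraries. IAPEy-int, a row of the branch with Y-linked copies, had 510 and 798 RPM in KLS Pu.1-KO a and b and 309 and 436 in WT. Stem and progenitor markers summed to 36265 and 14886 in KLS Pu.1-KO a and b and to 72028 and 59732 in WT, and late neutrophil markers to 117060 and 57059 against 39708 and 22064. The part of sex and of cell content in these values was not tested.

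In GMPs of the Pu.1 line 0 of 25 IAP rows were called by edgeR, as were 0.0% of all subfamilies, with 6 at an unadjusted p under 0.05 and 0 called by DESeq2. IAPEz-int overlapped between groups, with 6306 and 9318 RPM in Pu.1-KO and 8124 and 8175 in WT. IAP1-MM_I-int had 150 and 154 RPM in Pu.1-KO and 94.1 and 87.1 in WT (log2 fold change 0.74 ± 0.18, edgeR adjusted p = 0.507). The log2 fold changes of the other rows with many reads were 0.48 for IAPEY3-int, 0.32 for IAPLTR2a2_Mm, 0.23 for IAPLTR2_Mm and -0.37 for IAPLTR1_Mm. When these 4 libraries were fitted on their own, edgeR called 7 IAP rows and 13.4% of all subfamilies. In the WT libraries, 0 of 25 IAP rows differed between GMPs and KLS cells by edgeR (0.472% of all subfamilies did), with 1 at an unadjusted p under 0.05, IAPEY4_I-int, which DESeq2 called. The KLS and GMP columns share numbers in their names, and with that number as a block, as for 1 animal, edgeR called that 1 row. The Pu.1-KO effect was not found to differ between GMPs and KLS cells in any of the 25 rows by edgeR (0.0% of all subfamilies; 2 IAP rows at an unadjusted p under 0.05), though 2 were called without KLS Pu.1-KO a (2.22% of all subfamilies).

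Summed over the 25 rows, IAP reads made up 1.502%, 2.17% and 1.83% of repeat reads in Daxx-KO KLS libraries at 3 w.p.i. and 1.03%, 1.134% and 1.11% in WT, means of 1.83% ± 0.332 and 1.09% ± 0.0525 (SD, n = 3 each) and a ratio of 1.68. The DKO libraries had 1.30% and 1.22%, both above WT and below every Daxx-KO library. Scaled to a common number of gene reads instead, the DKO sums were 2866 and 2977, and the WT sums 2917, 3084 and 3072. On that scale DKO overlapped WT, and the Daxx-KO sums of 4295, 4188 and 4993 stayed above both groups. IAPEz-int carried much of the Daxx-KO share: with it left out, the ratio of Daxx-KO to WT was 1.27. In GMPs at 3 w.p.i. the Daxx-KO libraries had 1.92% and 2.37%, the WT libraries 1.38% and 1.28%, and the DKO libraries 1.29% and 2.72%. In the Pu.1 line the shares were 1.49% and 1.42% in Pu.1-KO KLS cells against 1.36% and 1.49% in WT, and 1.47% and 1.57% in Pu.1-KO GMPs against 1.20% and 1.08% in WT. The order depended on the scale. After TMM scaling the GMP groups overlapped, with 14152 and 16587 RPM in Pu.1-KO and 14774 and 14085 in WT. In KLS cells Pu.1-KO then lay below WT, at 12141 and 10873 RPM against 14343 and 13809. No test was run on these sums, and the tables were counted separately, so levels are compared within a set only. Over all sets, 73 alternative ratios of these sums stayed within the SD of the first-named group, and 32 moved further.

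**Figure D5:**
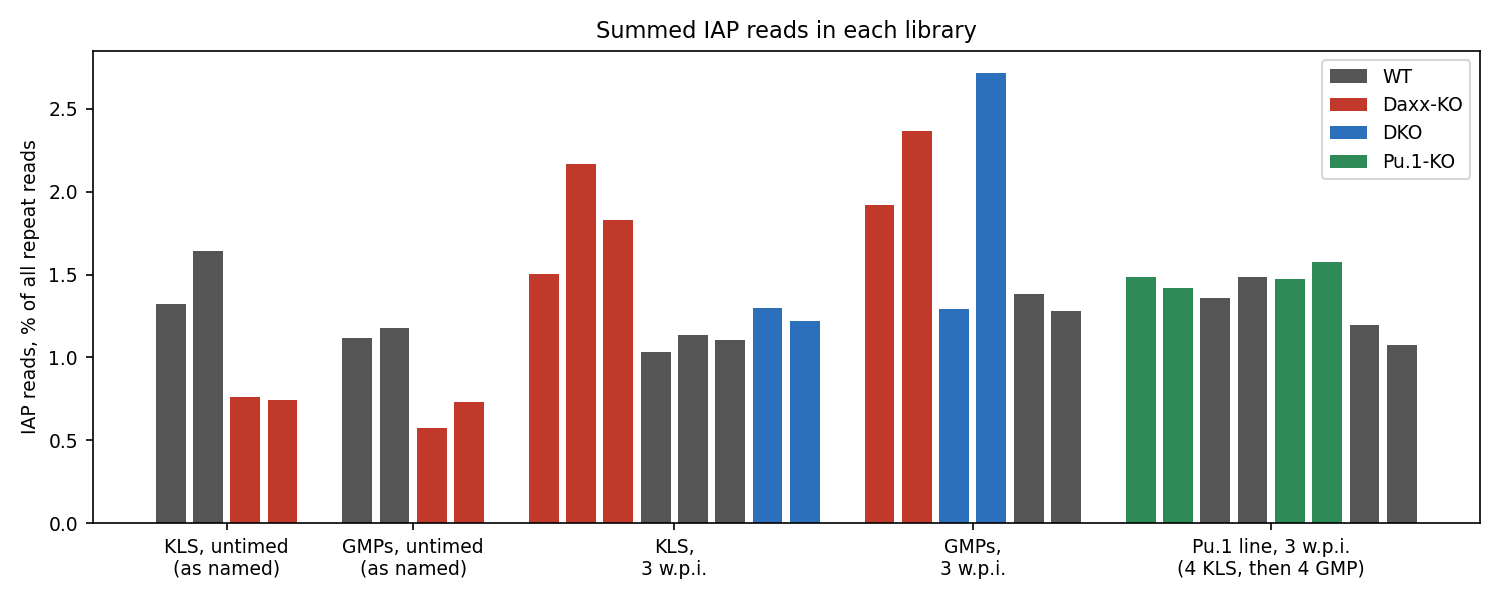
IAP reads summed over 25 subfamilies as a percentage of all repeat reads (y axis from 0), with a bar for each library coloured by genotype and the untimed columns as named. In KLS cells at 3 w.p.i. the Daxx-KO bars stand at 1.502% to 2.17%, the WT bars at 1.03% to 1.134% and the DKO bars at 1.22% and 1.30%.

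Beyond Daxx, few genes known to silence IAPs passed the test at 3 w.p.i. Of 28 listed genes other than Daxx, 24 could be tested. In KLS cells, 0 passed in Daxx-KO against WT by limma (0.257% of all 15200 genes were called), with 6 at an unadjusted p under 0.05 and 0 called by edgeR on the recovered reads. There Trim28 had 4672 ± 1107 normalized counts in Daxx-KO and 3451 ± 199 in WT, Setdb1 had 1026 ± 98.0 and 980 ± 114, and Atrx had 9085 ± 1632 and 9417 ± 889. In DKO against WT, where 17.6% of all genes were called, 2 passed: H3f3b, which encodes H3.3, rose by 0.67 and the DNA methyltransferase Dnmt3b fell by 0.62 on the log2 scale. Leaving out either DKO library, WT Lo52 or WT Lo53 gave 0 calls. In GMPs at 3 w.p.i. 0 of 24 passed in either comparison by limma or edgeR (0.0948% and 0.292% of all 13714 genes were called by limma). In both comparisons 0 silencing genes had an unadjusted p under 0.05.

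In the untimed gene tables, whose columns carry their own genotype names, 6 of 24 silencing genes passed in KLS cells and 11 in GMPs, where 23.1% and 33.0% of all genes were called by limma. In KLS cells 5 rose, among them Trim28 (log2 fold change 0.52) and Atf7ip, a partner of SETDB1 (0.72), and the chromatin assembly gene Chaf1b fell, with 0 calls left without either Daxx-KO library and 3 without WT 2. In GMPs Atrx, Atf7ip and Dnmt3a rose and 8 fell, led by the methylation factors Uhrf1 (-1.49) and Hells (-1.42). In KLS cells of the Pu.1 line 0 of 24 passed by limma or edgeR (0.81% of all genes were called by limma) and 7 had an unadjusted p under 0.05, with a median log2 fold change of -1.07 where that of all genes was 0.12. Without KLS Pu.1-KO a, 18 passed and 29.3% of all genes were called. In GMPs of that line, where 17.6% were called, 5 fell: Trim28, Setdb1, Pphln1, Dnmt3b and the heterochromatin protein gene Cbx5. Without either GMP WT library 0 passed, and without GMP Pu.1-KO b 21 did, where 42.3% of all genes were called. In these GMPs late neutrophil markers summed to 154760 and 151617 under Pu.1-KO against 34218 and 27531 for WT, and GMP markers to 104992 and 186969 against 264271 and 288121. Their part in these differences was not tested.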

How the data were processed

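RNA-seq libraries of sorted mouse bone marrow cells were analysed from tables that the authors deposited, aligned to mm10 by the submitters' processing notes, which name CASAVA 1.8.4, cutadapt 1.13, STAR 2.5.3 and DESeq2 1.16.1. For the 3 w.p.i. sets the authors deposited raw counts of reads per repeat subfamily. For the untimed repeat tables and all gene tables they deposited normalized counts, a signal of reads divided by a size factor per library, and all values came out as whole reads within 0.01. Labels name 1 library kit and the study's methods another for some sets. Sample names were matched to 65 of 111 columns; the other 46 were not used, among them LT-HSC, 24 w.p.i. and multi-cell-type time course columns, which are not analysed here.

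Counts were tested with edgeR 4.0.16 (TMM, filterByExpr, quasi-likelihood F test; SE is the fold change over the square root of F) and normalized counts with limma 3.58.1 (trend, log2(value + 1), mean of at least 10) in R 4.3.3, over all subfamilies or genes of a table, called at a Benjamini-Hochberg adjusted p under 0.05; limma fold changes are on that scale and understate changes of low rows. Where a set had 3 groups, all its libraries shared 1 fit, except that Daxx-KO and DKO KLS cells came from separate tables with the same 3 WT columns, which were joined on 887 shared rows to compare them. The scripts were tested on simulated data. Alternatives were DESeq2 1.42.0, other scalings, no filter, each library left out and a replicate block. Gene tables and repeat tables of a set have separate size factors. Depth sets the counting error of low rows, such as IAPLTR4_I; reads are not deduplicated molecules, so counting error is a lower limit.

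The members and the gene lists were chosen with earlier results of these data known. The rows named in a comparison were the 5 with the highest mean and the called rows, at most 8 by size; IAPLTR3-int, IAP1-MM_I-int, IAPEY4_I-int, IAPEy-int and IAPLTR3 were also named outside that rule after their values were seen, as were rows called by 1 tool.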

Additional observations from a re-analysis of the deposited data

Results flagged for a closer look

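No group had the 4 libraries that a check for a single outlying library needs. Rows are listed here because every library of a pair of contrasts moved in opposite directions; the difference itself was not tested, and the log2 fold changes below come from separate tables.

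Between untimed KLS cells (columns as named) and KLS cells at 3 w.p.i., both Daxx-KO against WT, 7 rows moved in opposite directions, with the untimed value first: IAPLTR3-int -2.965 and 2.174, IAPLTR4 -2.004 and 0.562, IAPEY4_I-int -1.336 and 0.504, IAPEz-int -1.012 and 0.969, IAPEy-int -0.987 and 0.423, IAP1-MM_I-int -0.827 and 1.541, and IAPLTR2_Mm -0.193 and 0.521. Between untimed GMPs and GMPs at 3 w.p.i., 7 rows did: IAPLTR3-int -3.574 and 2.086, IAPLTR4 -2.399 and 1.379, IAP1-MM_I-int -2.103 and 0.92, IAPLTR1_Mm -1.034 and 0.452, IAPEz-int -1.03 and 0.985, IAPLTR2b -0.69 and 0.314, and IAPLTR2_Mm -0.648 and 0.611. With the untimed genotype names exchanged, as the read depths pair the columns, each of these pairs would have the same direction.

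Between untimed KLS cells and untimed GMPs, IAPEY2_LTR had log2 fold changes of 0.883 and -0.413. Between KLS cells and GMPs of the Pu.1 line, IAPLTR2_Mm had -0.48 and 0.228 in Pu.1-KO against WT.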

How the results depend on the processing

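Exchanging the genotype names of the untimed repeat columns turned the direction, giving ratios of the summed IAP share of 1.974 in KLS cells and 1.76 in GMPs. The numbers of IAP rows called that moved by over 1.5 times were as follows. DESeq2 called 6 in Daxx-KO KLS cells (edgeR 3), 3 in DKO against WT (edgeR 1) and 5 in DKO against Daxx-KO (edgeR 3). Of all subfamilies it called 1.72%, 3.87% and 3.48% there. It called 1 in Daxx-KO GMPs (0.501% of all) and 1 in DKO GMPs against WT (0.627%). It also called 1 in Pu.1-KO KLS cells (1.53%), 1 in WT GMPs against KLS cells (1.65%) and 5 in untimed GMPs (2.34%, limma 11 rows). In untimed GMPs, TMM rescaling gave 3 (0.992% of all subfamilies), repeat-total scaling 4 (2.07%) and edgeR on recovered reads 3 (1.32%). There gene-read scaling gave 0 (0.0994%) and gene-read scaling by the exchanged name 7 (5.33%). Gene-read scaling gave 1 in untimed KLS cells (0.385% of all), 2 in DKO against WT (2.55%), 6 in Pu.1-KO KLS cells (16.2%) and 23 in WT GMPs against KLS cells (75.4%). In untimed KLS cells TMM rescaling and edgeR each called 7 (3.99% and 4.37% of all), of which 5 were among the 8, and DESeq2 9 (6%). An adjusted p under 0.1 gave 2 in DKO against WT and 5 in DKO against Daxx-KO. The share of all subfamilies at that threshold is not given here, so these 2 counts cannot be set against it. Fitting only the libraries compared gave 1 in Daxx-KO GMPs (0.508% of all) and 7 in Pu.1-KO GMPs (13.4%). Except for scalings and subsets, where the construction differs, the cause was not tested.

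In the untimed sets, here and below, gene-read scaling used the gene column of the same name, whose depth did not match. It moved the median log2 fold change of all subfamilies to -2.98 in KLS cells and -0.77 in GMPs. With the gene column of the exchanged name these medians were 0.16 and -0.27, against 0.27 and -0.28 on the deposited scale. In the other sets gene-read scaling moved the median to -0.20 and -0.14 in Daxx-KO and DKO KLS cells, -0.40 in Daxx-KO GMPs, 0.44 in DKO against Daxx-KO GMPs, 0.76 and 0.27 in Pu.1-KO KLS cells and GMPs, and -1.10 in WT GMPs against KLS cells. It also turned the sign of log2 fold changes: IAPEY2_LTR -2.361 (untimed KLS), IAPLTR1a_Mm -0.05909, -0.05961 and -0.3604 (Daxx-KO KLS, DKO KLS and Daxx-KO GMPs), IAPLTR1_Mm 0.04837 and IAPLTR2_Mm 0.2698 (DKO against Daxx-KO GMPs), IAPEz-int 0.1976, IAPLTR2_Mm 0.1655 and IAPLTR2a2_Mm 0.4859 (Pu.1-KO KLS), IAPEz-int 0.1604 (Pu.1-KO GMPs), IAPEz-int -0.9291, IAPLTR2a2_Mm -1.017 and IAPLTR1_Mm -0.8631 (WT GMPs against KLS), and IAPEz-int -0.03721 and IAPEY3-int -0.4072 (difference of the Pu.1-KO effects).

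Leaving out a library gave 4 to 8 IAP rows called in untimed KLS cells, 7 to 13 in untimed GMPs, 0 to 2 in DKO KLS cells, 1 to 3 in DKO against Daxx-KO, 0 to 2 in DKO GMPs, 0 to 8 in Pu.1-KO KLS cells and 0 to 2 for the difference of effects. Silencing genes called ranged from 0 to 4 in untimed KLS cells, 0 to 3 in DKO KLS cells, 0 to 18 in Pu.1-KO KLS cells and 0 to 21 in Pu.1-KO GMPs. Log2 fold changes that crossed 0 ranged as follows. In DKO KLS cells these were IAPLTR1_Mm (-0.1386 to 0.0004452) and IAPLTR1a_Mm (-0.09288 to 0.2353), and in DKO against Daxx-KO IAPLTR1a_Mm (-0.2425 to 0.08881). In Daxx-KO GMPs these were IAPEY4_I-int (-0.1332 to 0.9857) and IAPLTR1a_Mm (-0.04579 to 0.1506). In DKO GMPs against WT these were IAPEz-int (-0.1699 to 1.259), IAPLTR1_Mm (-0.2988 to 0.5877) and IAPEY4_I-int (-0.3524 to 1.156). Against Daxx-KO they were IAPEz-int (-1.154 to 0.2811), IAPLTR1_Mm (-0.7494 to 0.1431), IAPEY4_I-int (-0.6854 to 0.7141), IAPLTR2_Mm (-0.4594 to 0.2847) and IAPLTR1a_Mm (-0.005034 to 0.2933). In the Pu.1 line they were IAPLTR2a2_Mm (-0.4298 to 0.1037) in KLS cells, IAPEz-int (-0.372 to 0.1746) in GMPs, IAPLTR2a2_Mm (-0.1665 to 0.3466), IAPEY3-int (-0.4127 to 0.1313) and IAPLTR1_Mm (-0.02414 to 0.4505) between WT cell types, and IAPEY3-int (-0.2205 to 0.3255) and IAPLTR1_Mm (-0.07081 to 1.178) for the difference of effects.

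Replicate numbers were not taken as pairing the libraries, since the labels name no shared source. The labels number 3 WT KLS libraries at 3 w.p.i., but the column called unnumbered here has an animal number found in no label. It was left out of the block, so no comparison had 3 pairs. Correlations of deviations between same-numbered libraries were 0.083 in untimed KLS cells and -0.345 in untimed GMPs. In the later KLS set they were 0.144 and 0.187 between Daxx-KO and WT, -0.044 and -0.191 between Daxx-KO and DKO, and 0.12 in both pairs of WT and DKO. With the number as a block, 8 IAP rows were called in untimed KLS cells (9.33% of all subfamilies) and 9 in untimed GMPs (9.98%). With the pairing crossed, a choice made after seeing the data, 12 were called in untimed GMPs (22.1%). The block gave 5 in Daxx-KO KLS cells (4% of all), 3 in DKO against WT (5.47%, and 1 row without the block) and 3 in DKO against Daxx-KO (1.57%). An animal block across KLS cells and GMPs of the Pu.1 line called 1 row between WT cell types (2.29% of all). The 24 w.p.i. and LT-HSC comparisons and their alternatives were not run.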

Other observations

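The makeup of IAP reads in the Pu.1 line stood apart from that in the Daxx tables, in values set side by side from tables counted separately and with no test. IAPEz-int took 43.2% to 58.0% of IAP reads in the 8 libraries of the Pu.1 line and 60.2% to 79.7% in the other tables. IAPEy-int ranged from 216 to 1042 RPM (of repeat reads, without TMM scaling) in the Pu.1 line and from 26.5 to 83.8 elsewhere, and IAPLTR4_I, another internal region, from 53.5 to 198 against 0.566 to 9.10. IAPA_MM-int went the other way, at 4.46 to 13.1 in the Pu.1 line and 18.4 to 87.7 elsewhere. These 3 rows were chosen after their values were seen.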
